A study of Mus musculus with 17 samples.

Results

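The 48 genes described here build, fire and repair DNA replication forks or drive the cell cycle, and they were examined for H3K27ac in mouse hypothalamus, a tissue of mostly postmitotic cells. They were given as a list, and all 48 were found by symbol among the 21887 protein-coding genes of the RefSeq annotation of GRCm38.p6, the assembly called mm10. H3K27ac, the acetylated form of lysine 27 in the tail of histone H3, is found at active promoters and enhancers. The samples were 3 bulk CUT&Tag libraries of dissected hypothalamus, labelled as biological replicates and made with an antibody to H3K27ac. In CUT&Tag the antibody brings the Tn5 transposase to marked chromatin, where it cuts and tags the DNA. The same study holds 7 DNA and 7 RNA sub-libraries of Paired-Tag, which reads a histone mark and RNA in the same nucleus, and these were not analysed here. Strain, sex, age, genotype and treatment of the animals are not stated in the labels, and no group serves as a control.

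The data are 1 list of 183678 peaks for the 3 libraries together. Each peak has a position, a summit, a fold enrichment (a linear ratio to the background of the peak caller) and a −log10 q (the strength of the caller's evidence), all as the authors deposited them. The list holds no value per library and no read count. Depth is therefore unknown, no spread between animals could be given, and the values below are descriptions set beside the same counts over all protein-coding genes, with no test. In bulk tissue, a mark carried by few cells and a weak mark carried by many cannot be told apart. RNA was not measured in the data used here, so a peak says nothing of the level of a transcript. A gene is called marked when a peak came within 1 kb of the first or last base of its span.

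Replication origins are licensed in G1, when the origin recognition complex (ORC), Cdc6 and Cdt1 load the MCM2-7 helicase on DNA. In S phase, cyclin-dependent kinases fire the origins, and polymerases, the PCNA clamp, its RFC loader and the single-strand binding protein RPA copy the template. RB holds E2F transcription factors in check until cyclin D with Cdk4, and then cyclin E with Cdk2, phosphorylate it. E2F-bound promoters serve the G1/S genes. CHR elements of G2/M genes are bound by MuvB complexes, DREAM among them, often beside CCAAT boxes bound by NF-Y. Most neurons left the cycle during development, whereas oligodendrocyte precursors, microglia and tanycytes of the adult hypothalamus can still divide.

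Promoter sequences of the GRCm38.p6 RefSeq table matched 39 of the 48 genes. For 11 of them, chosen after their values were seen, the 150 bases just before the 5′ end of the span are printed 5′ to 3′ on the strand of the gene, with mm10 coordinates. Capitals mark E2F letters (TTTCCCGC, TTTCGCGC, TTTGCCGC or TTTGGCGC), CHR letters (TTTGAA or TTCGAA) and CCAAT, each read on either strand. TTCGAA is its own reverse complement, and a match is a match of letters, not a measured binding site. No other gene's span overlaps these windows. The first pair belongs to the unshared promoters of highest fold, and neither holds any of these letters.
Lrr1, chr12:69168664-69168813 (+): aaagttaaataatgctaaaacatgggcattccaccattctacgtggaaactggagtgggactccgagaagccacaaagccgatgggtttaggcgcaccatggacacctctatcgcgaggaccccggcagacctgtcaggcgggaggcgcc
Rfc4, chr16:23127731-23127880 (-): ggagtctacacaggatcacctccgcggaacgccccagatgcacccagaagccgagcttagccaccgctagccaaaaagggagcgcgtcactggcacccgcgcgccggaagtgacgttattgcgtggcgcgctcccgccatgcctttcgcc
The next 3 are replication genes with E2F letters, at middle to upper folds. In Mcm6 and in Mcm5, matches of the 2 strands overlap each other.
Mcm6, chr1:128359706-128359855 (-): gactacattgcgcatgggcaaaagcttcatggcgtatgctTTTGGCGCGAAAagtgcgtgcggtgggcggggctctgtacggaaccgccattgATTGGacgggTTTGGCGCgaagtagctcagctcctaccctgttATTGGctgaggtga
Mcm5, chr8:75109318-75109467 (+): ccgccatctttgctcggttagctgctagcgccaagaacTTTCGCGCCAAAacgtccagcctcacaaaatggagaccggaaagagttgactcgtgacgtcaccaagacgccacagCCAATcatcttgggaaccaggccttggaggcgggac
Rfc3, chr5:151651209-151651358 (-): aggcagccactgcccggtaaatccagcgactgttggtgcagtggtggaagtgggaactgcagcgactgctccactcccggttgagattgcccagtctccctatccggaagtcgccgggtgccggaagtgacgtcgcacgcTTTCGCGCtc
Cdk1 holds E2F letters, CHR letters and CCAAT together, and Ccnb1 holds CCAAT alone in this stretch.
Cdk1, chr10:69352913-69353062 (-): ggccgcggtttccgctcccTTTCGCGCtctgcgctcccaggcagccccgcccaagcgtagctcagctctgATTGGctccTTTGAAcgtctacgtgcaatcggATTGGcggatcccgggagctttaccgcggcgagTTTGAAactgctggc
Ccnb1, chr13:100786487-100786636 (-): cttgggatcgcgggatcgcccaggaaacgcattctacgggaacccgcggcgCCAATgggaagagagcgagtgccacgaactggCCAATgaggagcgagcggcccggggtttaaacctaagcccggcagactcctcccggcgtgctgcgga
The last 4 are genes of mitosis or proliferation markers, the first pair with a peak over the window and the second pair without. CHR letters of Plk1 and Bub1 lie past the printed stretch, 30 and 14 bases after their listed starts.
Plk1, chr7:122159285-122159434 (+): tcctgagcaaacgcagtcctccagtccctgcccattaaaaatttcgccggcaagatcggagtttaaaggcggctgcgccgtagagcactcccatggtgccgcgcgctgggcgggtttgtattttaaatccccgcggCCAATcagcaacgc
Mki67, chr7:135716451-135716600 (-): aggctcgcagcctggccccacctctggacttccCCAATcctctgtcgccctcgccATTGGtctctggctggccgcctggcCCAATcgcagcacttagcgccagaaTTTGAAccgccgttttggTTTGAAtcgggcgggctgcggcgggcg
Top2a, chr11:99024200-99024349 (-): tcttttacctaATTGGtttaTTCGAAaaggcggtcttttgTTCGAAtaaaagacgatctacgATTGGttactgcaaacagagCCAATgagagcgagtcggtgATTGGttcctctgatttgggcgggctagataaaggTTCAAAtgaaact
Bub1, chr2:127831860-127832009 (-): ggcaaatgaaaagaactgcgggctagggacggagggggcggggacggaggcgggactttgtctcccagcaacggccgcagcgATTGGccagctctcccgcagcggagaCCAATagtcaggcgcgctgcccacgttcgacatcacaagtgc

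A peak lay within 1 kb of an end of 44 of the 48 genes (91.7%), beside 69.2% of all protein-coding genes. The mark stood at 1 end of 34 genes and at both ends of 10 (20.8% of the 48, beside 23.2% of all protein-coding genes). With the whole span and 1 kb around it counted, 46 genes held a peak (95.8%, beside 75.2%). The strand is known for 39 of the 48, and 37 of these (94.9%) had a peak within 1 kb of a start listed in the promoter table, beside 68.3% of the 17492 protein-coding genes with such a start. The 5′ end of the span itself was marked in 34 of the 39, beside 65.3%. Among the 35 marked genes of known strand, the strongest end peak lay at the 5′ end in 34 and at the 3′ end in 1, Rfc1. The same share over all marked genes is not given here, so this cannot be called a trait of these genes.

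The highest fold at an end had a median of 10.6 over the 44 marked genes and of 8.60 over all marked protein-coding genes, whose lower and upper quartiles were 5.49 and 11.98. It ran from 2.46 at Aurkb to 26.8 at Lrr1. The fold was above the median of all marked genes in 30 and below it in 14. It exceeded the upper quartile in 14 and lay under the lower quartile in 8. A fold over 20 was given to 3 of the 44, Lrr1, Exo1 and Rpa1, beside 137 of all marked genes (0.904%). At the other extreme, 8 of the 44 (18.2%) lay under 5, beside 21.2%. Over all 44, the strongest end peaks were narrower than those of all marked genes, with a median width of 960.5 bp beside 1246 bp. The median −log10 q over the 44 was lower, 137 beside 185, although their median fold was higher.

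**Figure D1:**
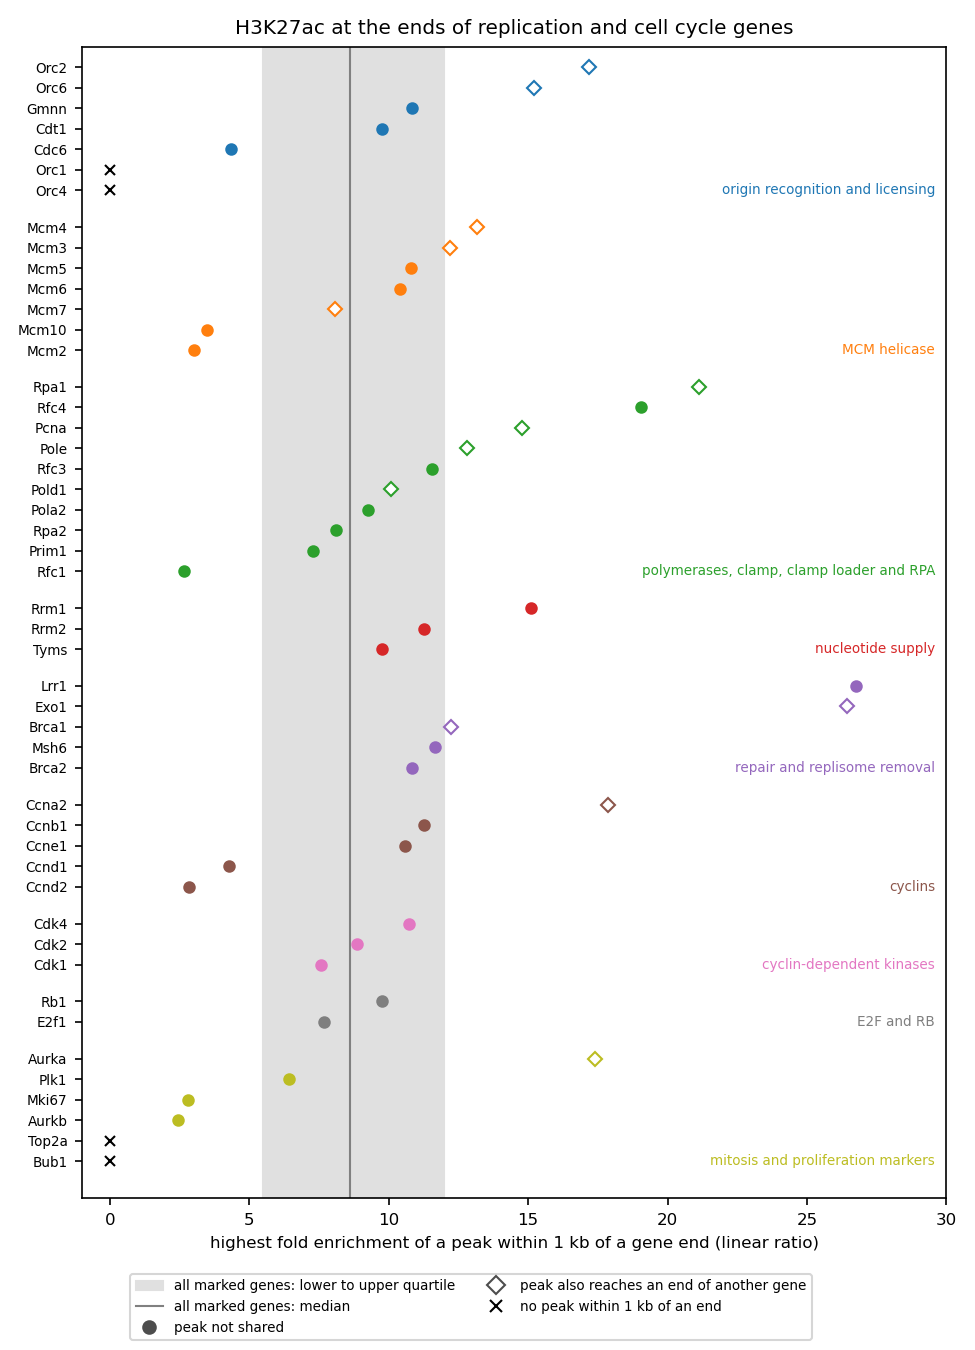
Highest fold enrichment (linear ratio, x axis) of a peak within 1 kb of a gene end for each of the 48 genes, grouped by role; diamonds are peaks that also reach an end of another gene, crosses are genes without an end peak, and the line and band are the median (8.60) and quartiles (5.49 to 11.98) of all marked protein-coding genes. Lrr1 (26.8) and Exo1 (26.4) stand at the far right, and Aurkb, Mki67, Rfc1 and Ccnd2 lie under 3.

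All 7 genes of origin recognition and licensing held a peak in their span, beside 75.2% of all protein-coding genes, and 5 held it at an end (71.4%), a share near the 69.2% of all. Orc2 and Orc6, subunits of the complex that marks origins, had end folds of 17.2 and 15.2. Gmnn, which encodes geminin, the inhibitor of Cdt1, had 10.8, and Cdt1, the loader of MCM2-7, had 9.76. Cdc6, the ATPase that joins ORC before the helicase is loaded, was the lowest at 4.33, with a −log10 q of 18.8. Orc1, the ORC subunit that comes and goes with the cycle, and Orc4 had no end peak. Their listed starts lie well inside the spans. A peak of fold 6.21 covered the start of Orc1, 3749 bp inside its span (chr4:108578768-108579751). At Orc4, whose 3 listed starts begin 2668 bp inside its span, the peak had a fold of 12.3 (chr2:48948688-48950347).

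All 7 MCM genes were marked at an end, beside 69.2% of all protein-coding genes. Their folds ran over a range of 3.00 to 13.2 that divides subunits of the same hexamer. The helicase itself is made of Mcm2 to Mcm7 in equal numbers. Mcm4 had a fold of 13.2, Mcm3 of 12.2, Mcm5 of 10.8, Mcm6 of 10.4 and Mcm7 of 8.07. Mcm2 had only 3.00, from a peak of 390 bp over its start, with a −log10 q of 44.1, and so lay at the 5.66th percentile of marked genes by fold and the 18.5th by −log10 q. Mcm10, a firing factor that is no part of the ring, had 3.47 from a peak of 392 bp.

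All 10 genes of the polymerases, clamp, clamp loader and RPA were marked, beside 69.2% of all protein-coding genes. Their median end fold was 10.8. Rpa1, the large subunit of RPA, had 21.1 and Rpa2 8.09. Rfc4 had 19.1, Rfc3 had 11.6 and Rfc1, the large subunit of the same clamp loader, had 2.66. The value of Rfc1 comes from its 3′ end. Over its listed start, 2978 bp inside the span, lay a peak of fold 14.9 (chr5:65335231-65335962), so that the 3 loader genes had start peaks of 19.1, 14.9 and 11.6. Pcna, the sliding clamp, had 14.8. Pole, the leading-strand polymerase subunit, had 12.8, and Pold1, the catalytic subunit of polymerase delta, had 10.1. The primase-polymerase subunits Pola2 and Prim1 had 9.26 and 7.30.

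Genes for nucleotide supply and for repair were marked in every case, 3 of 3 and 5 of 5, beside 69.2% of all protein-coding genes. All 8 lay above the median of marked genes. Rrm1, the large subunit of ribonucleotide reductase, had 15.1, and Rrm2, its small subunit made in S phase, had 11.3. Tyms, the enzyme that makes thymidylate, had 9.75. Lrr1, the ubiquitin ligase adaptor that helps take the helicase off DNA when forks meet, had 26.8 with a −log10 q of 502 (chr12:69168311-69169133). That peak ranked 6th by fold among the 183678 peaks, whose highest fold is 27.97. Exo1, a nuclease of mismatch repair and end resection, followed with 26.4, the 9th of the list (chr1:175880353-175881175). Brca1 and Brca2, which act in homologous recombination, had 12.2 and 10.8, and Msh6, a subunit that recognises mismatches, had 11.6. For replication, nucleotide supply and repair together, 30 of 32 genes were marked at an end, beside 69.2% of all protein-coding genes. All 32 held a peak in the span, beside 75.2%, and all 28 with a listed start were marked there, beside 68.3%.

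Cyclin folds ranged more widely than those of the kinases they bind. Ccna2, the cyclin of S and G2 phase, had 17.9. Ccnb1, the mitotic cyclin, had 11.3, and Ccne1, the cyclin of the G1/S step, had 10.6. The D cyclins, which link growth signals to Cdk4, were low, with 4.28 at Ccnd1 and 2.82 at Ccnd2. The 3 peaks inside Ccnd2 were all stronger than its end peak, with a highest fold of 4.99. That highest peak (chr6:127149141-127151136) lay just beyond the 1 kb window of the span's higher end, at 127152188. The low end fold of Ccnd2 thus depends on the window. The 2 peaks inside Ccnd1 were weaker than its end peak, with folds of 4.09 and 2.19. The kinases lay close together, Cdk4 at 10.7, Cdk2 at 8.87 and Cdk1, the mitotic kinase, at 7.58. E2f1 had 7.68, and a second peak of nearly the same fold, 7.52, reached its other end. Rb1, the brake on E2F, had 9.74.

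Of the 6 mitosis genes and proliferation markers, 4 were marked at an end (66.7%), a share near the 69.2% of all protein-coding genes. The median fold over those 4 was 4.62, beside 8.60 over all marked genes. Aurka, the kinase of centrosomes and spindle poles, had 17.4, but from a promoter it shares with Cstf1. Plk1, a mitotic kinase, had 6.43. Mki67, whose protein Ki-67 is the standard label of cycling cells, had 2.82 with a −log10 q of 6.74, and Aurkb, the kinase of the chromosomal passenger complex, had 2.46 with 4.53. Both folds lie under 3.18, the median of the whole list, in which 2137 peaks have the same fold as that of Mki67 and 1679 the same as that of Aurkb. Top2a, the topoisomerase of dividing cells, and Bub1, a kinase of the spindle checkpoint, had no peak at an end or in the span. The nearest peak lay 9924 bp from the span of Top2a (fold 6.00) and 7403 bp from that of Bub1 (fold 13.5).

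With peaks restricted to those above the median −log10 q of the list, 40 of the 48 genes stayed marked, beside 64.3% of all protein-coding genes, and Aurkb, Mcm10, Mki67 and Rfc1 dropped out. With only the peaks that reached the upper quartile of fold in the list (4.24), 38 stayed marked, beside 58.6%, and Ccnd2 and Mcm2 dropped out as well. Windows of 500 bp and 2500 bp and a summit inside the window each left the same 44 marked, beside 65.9%, 73.6% and 65.7%. Asking for 50% of the peak inside the window removed Ccna2 alone, leaving 43 beside 65.8%.

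**Figure D2:**
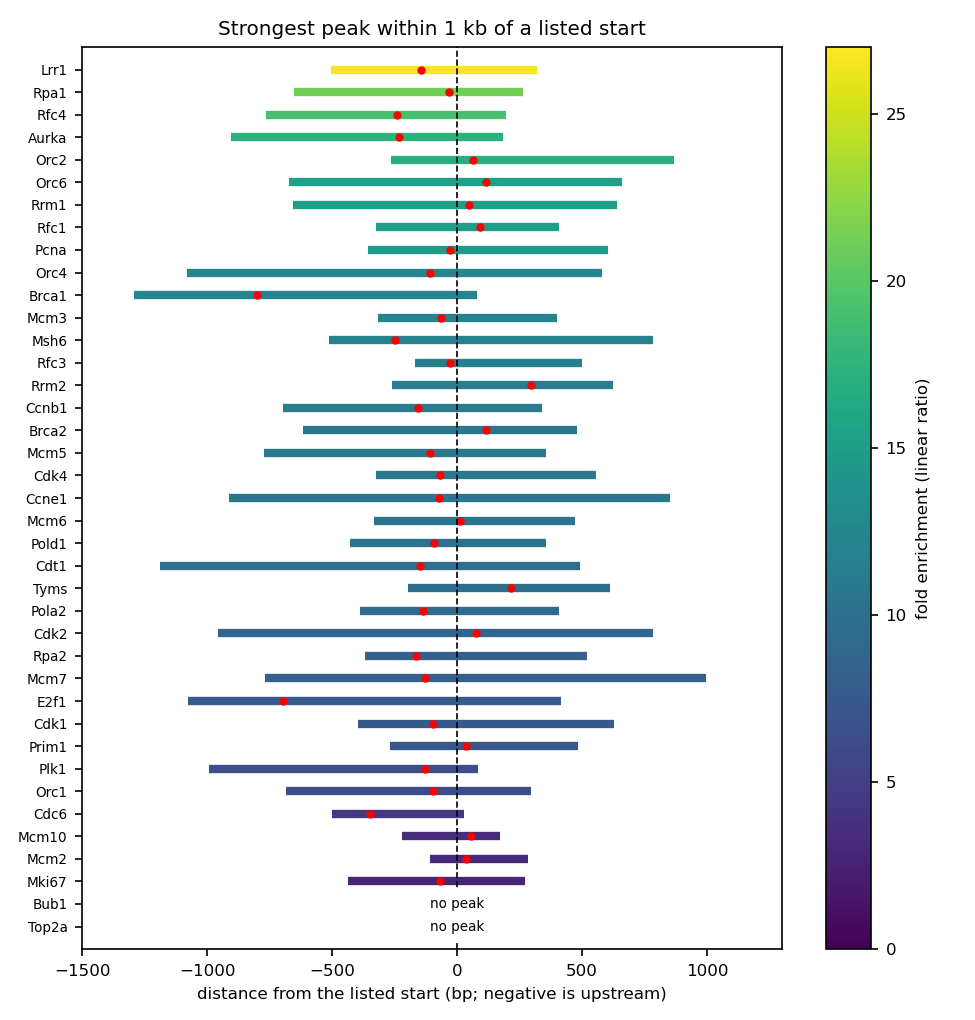
Strongest peak within 1 kb of a listed start for the 39 genes of known strand (rows), drawn from edge to edge against distance from the start in bp, with negative values upstream, coloured by fold enrichment, red dots marking summits. Summits lie within 250 bp of the start in 33 of the 37 genes with a peak, and no peak is drawn for Top2a and Bub1.

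The peaks at starts were centred close to them. Among the 37 genes with a peak at a listed start, the summit lay a median of 107 bp from the start, beside 116 bp over the 11948 protein-coding genes with such a peak. It lay within 250 bp in 33 of 37 (89.2%), beside 75.3%. The summit was upstream of the start in 25 of 37 (67.6%), beside 46.4%. Brca1 and E2f1 had the summits farthest upstream, 800 and 695 bp. The median width of these peaks was 961 bp, beside 1271 bp.

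Several of the strongest values came from peaks that also reached an end of another gene. Such an end can be a start or a 3′ end. The strongest end peak also reached within 1 kb of an end of another gene in 13 of the 44 (29.5%), beside 36.6% of all marked protein-coding genes. With only protein-coding partners counted, it did so in 10 (22.7%), beside 24.4%. The median fold was 14.8 over the 13 shared peaks and 9.74 over the 31 others, and no shared one was under 8.07. Over all marked protein-coding genes the same medians were 9.32 and 8.17. The summit lay nearest to the gene itself in 38 of 44 (86.4%), beside 83.8%.

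For 5 genes the partner is a protein-coding gene that starts head to head on the other strand. Rpa1 and Smyd4 have ends 21 bp apart, Mcm7 and Ap4m1 90 bp, Brca1 and Nbr1 152 bp, Pcna and Cds2 158 bp, and Aurka and Cstf1 241 bp. The spans overlap for Rpa1, Mcm7 and Aurka. The summit lay nearest to the partner at Rpa1, Mcm7 and Brca1, and nearest to the replication or mitosis gene at Pcna and Aurka. Orc2 starts head to head with Gm15834, a long noncoding RNA gene whose end is 2 bp away. In other pairs the strand of 1 gene or both is not known here. Among them are Orc6 with Vps35 (115 bp), Mcm4 with Prkdc (44 bp), Pole with Pxmp2 (97 bp) and Exo1 with noncoding Gm36360 (13 bp). Ccna2 with Bbs7 (104 bp) is another, but Bbs7 lies on the minus strand beyond the higher end of Ccna2. The near end of Bbs7 is therefore its 3′ end and not a start. Prkdc encodes the catalytic subunit of a DNA repair kinase, so that Mcm4 shares its peak with a gene of related work. The summits at Mcm4, Pole and Exo1 lay nearest to the partner. Mcm3 shares its peak with the pseudogene Gm20587 (1019 bp apart), and Pold1 with Nr1h2 (801 bp), which reads the same strand. The near end of Nr1h2 is its 3′ end.

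With each peak given only to the gene nearest to its summit, 39 of the 48 stayed marked, beside 61.9% of all protein-coding genes, and Brca1, Exo1, Mcm4, Mcm7 and Pole dropped out. Rpa1 kept a mark through a weaker peak at its other end, of fold 3.79. The peaks of high fold at Exo1 and Rpa1 thus each reach ends of a pair of genes, and the shares of the pair in them cannot be told apart. Lrr1 and Rfc4, with folds of 26.8 and 19.1, shared their peak with no annotated gene, and neither did Rrm1 with 15.1.

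Peaks inside the genes were more in number than those at the ends but lower. The 48 spans with 1 kb around them held 131 peaks, 57 at ends and 74 inside, with median folds of 9.26 and 3.27. No inside peak was found in 26 of the 48, so that the median was 0 inside peaks, beside 1 over all protein-coding genes, and 23 held exactly 1 peak in all. The shares of all genes for the 26 and the 23 are not given here, so these counts stand without a background. The inside peak of Orc1 and that of Orc4 are the peaks over their listed starts. Rb1, the longest of the genes at 133094 bp, held 25 inside peaks, none above 6.56. Rfc1 held 11, of which the highest is the peak at its listed start, and Rpa1 held 9, none above 4.02. Those 3 genes hold most of the inside peaks. Peaks covered a median of 9.44% of the span over the 48 genes, beside 8.68% over all protein-coding genes and 13.7% over all marked ones, with similar median lengths of 15957.5 and 17169 bp for the 48 and for all.

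**Figure D3:**
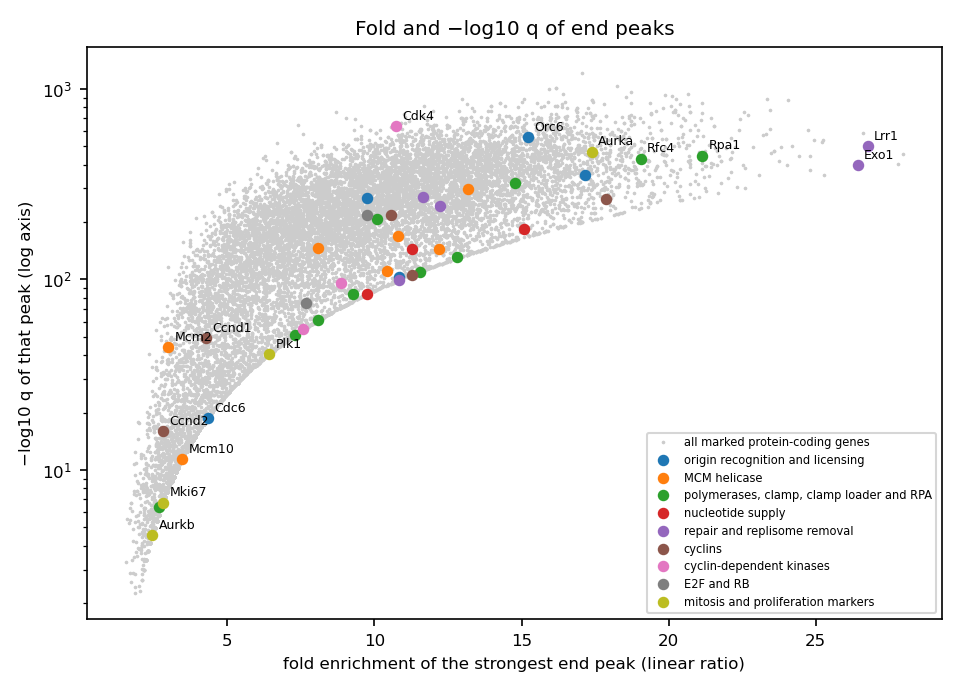
Fold enrichment (linear ratio, x axis) against −log10 q (log axis) of the strongest end peak, for the marked genes described here (coloured) and all marked protein-coding genes (grey). Cdk4 has a −log10 q of 640 at a fold of 10.7, and Lrr1 and Exo1 lie at the highest folds.

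Ranking by fold and by −log10 q gave a similar order over the 44 genes (Spearman rho 0.87, a description across genes that share libraries and depth). Against all marked genes the places differed more. Cdk4 lay at the 66.6th percentile by fold and the 98.5th by −log10 q, with a value of 640. Rrm1 and Pole went the other way, at the 90.8th and 79.8th percentiles by fold and the 49.7th and 37.5th by −log10 q. Low folds coincided with low −log10 q in Aurkb, Mki67, Rfc1, Mcm10, Ccnd2 and Cdc6, whose end peaks were all under 20 on that scale.

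The promoter windows, 250 bases before to 50 after each listed start, held different letters in replication and in mitosis genes. E2F letters stood in 11 of the 28 replication, nucleotide supply and repair genes (39.3%), in none of the 5 mitosis genes and in 3.29% of all 17492 protein-coding genes. CHR letters stood in 3 of those 28 (10.7%), in all 5 mitosis genes and in 20.2% of all. Ccnb1 and Cdk1, grouped here with the cyclins and the kinases, are not among the 5. The window of Ccnb1 held no CHR letters, and that of Cdk1 held both E2F and CHR letters. Over the 39 genes together, the share with CHR letters was 23.1%, near that of all. E2F letters were not particular to these lists, since 6 of 30 meiosis and germ cell promoters held them too (20.0%). CCAAT stood in 28 of the 39 genes (71.8%), beside 42.3% of all. Among genes with a peak at a listed start the shares were 4.49% for E2F letters, 16.0% for CHR letters and 42.1% for CCAAT. CHR letters and CCAAT stood together in 9 of the 39 (23.1%), beside 9.24% of all. All 5 mitosis genes held both. Of the 28 replication, nucleotide supply and repair genes 3 did (10.7%), a share near that of all.

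E2F letters were found in Brca2, Cdc6, Cdk1, Cdk2, Cdt1, Mcm3, Mcm5, Mcm6, Mcm7, Msh6, Orc1, Pold1 and Rfc3, all 13 marked at a listed start. Their start folds ran from 4.33 to 12.2 with a median of 10.1. Of the 26 without these letters 24 were marked, with a median of 11.3 and a range of 2.82 to 26.8, so that the folds over 20 at Lrr1 and Rpa1 stood at promoters without them. In Mcm6 they begin 110, 106 and 47 bases before the start, in Rfc3 10 bases before and at the start itself, and in Orc1 27 bases before. CHR letters were found in Aurka, Bub1, Cdk1, Mcm2, Mcm7, Mki67, Plk1, Rfc3 and Top2a. Of these 9 promoters 7 were marked, with a median fold of 7.58, beside 30 of 30 without them and a median of 10.8. Over all protein-coding genes with a listed start, a peak stood there in 1912 of the 3538 with CHR letters. It stood there in 537 of the 575 with E2F letters, so 13 of 13 is near the share of all such promoters. Whether either kind of letters goes with the mark was not tested. The pair without a peak, Top2a and Bub1, is among the 9, and Top2a holds 4 matches, as the printed sequence shows in part.

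GGGCGG, the core of a GC box, stood in 28 of the 39 windows (71.8%), beside 67.2% of genes with a peak at a listed start and 49.2% of all. Letters of the NRF1 motif stood in 2, Aurka and Pola2 (5.13%, beside 7.17% of all). The ratio of observed to expected CpG had a median of 0.940 over the 39 windows, 0.764 over genes with a peak at a listed start and 0.610 over all. The median GC content was 58.0%, 61.7% and 57.3% in the same order. The windows of these genes thus held more CpG for their GC content, and the windows of the mitosis genes, Top2a and Bub1 included, had a median ratio of 0.952.

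**Figure D4:**
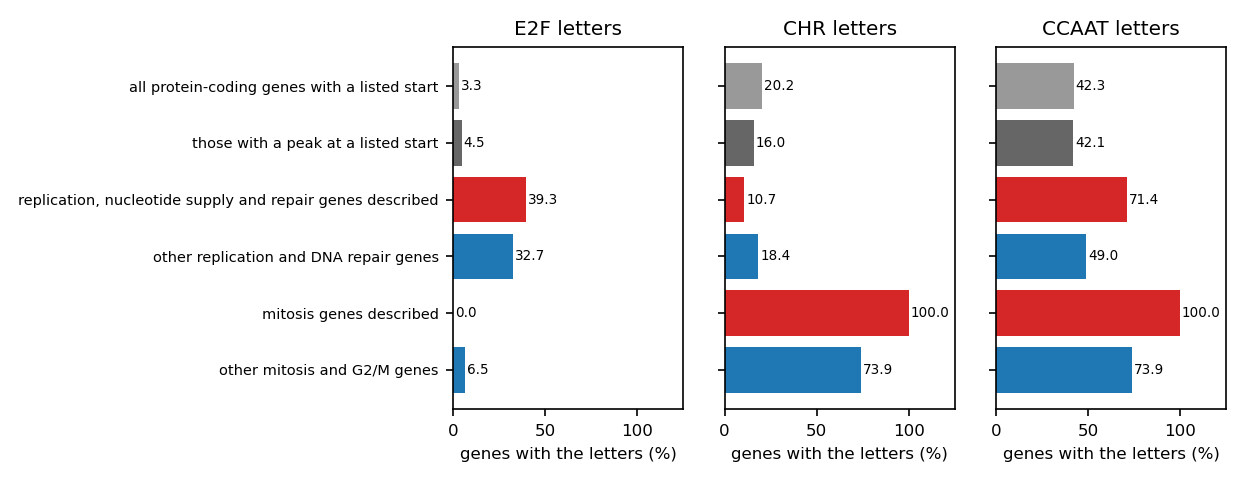
Share of genes (%, x axes) whose promoter window holds E2F, CHR or CCAAT letters, for all protein-coding genes with a listed start, those with a peak there, and 4 gene groups; red bars are the genes described here and blue bars other genes of the same processes. E2F letters stood in 39.3% and 32.7% of the replication groups, and CHR letters in 100.0% (5 of 5) and 73.9% of the mitosis groups.

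Other genes of the same processes carried the mark as widely, beside 69.2% of all protein-coding genes marked at an end. Of 63 other replication and DNA repair genes, all 63 were marked at an end, with a median fold of 12.1. The highest were Lig1, the ligase that joins Okazaki fragments, at 19.7 from a peak shared with Zswim9, Chek1, the S phase checkpoint kinase, at 18.9, and Orc5 at 18.7, also from a shared peak. Their windows held E2F letters in 16 of 49 (32.7%). CCAAT stood in 24 of these 49 (49.0%), nearer to the 42.3% of all than the 71.8% of the genes described here. Of 54 other mitosis and G2/M genes, 53 were marked, with a median fold of 10.5. Ect2, a regulator of cytokinesis, had 19.6, Ndc80, of the outer kinetochore, also 19.6, both from shared peaks, and Mad2l1, of the spindle checkpoint, had 19.0. Dlgap5 alone had no end peak, and 1 peak of fold 5.53 inside. CHR letters stood in 34 of 46 of these windows (73.9%), and CCAAT also in 34 of 46 (73.9%). The lack of a peak at Top2a and Bub1 and the folds under 3 of Mki67 and Aurkb stand beside 53 such genes with an end peak, of which 34 lay above the median of marked genes.

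Of 34 genes of G1 control, quiescence and kinase inhibition, 32 were marked, beside 69.2% of all protein-coding genes, with a median fold of 8.60. Ccnc, Cdk7 and E2f5 were the highest, at 17.4, 17.3 and 16.4. Ccna1 and Cdkn1a had no end peak but folds of 10.8 and 5.27 at a listed start.

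**Figure D5:**
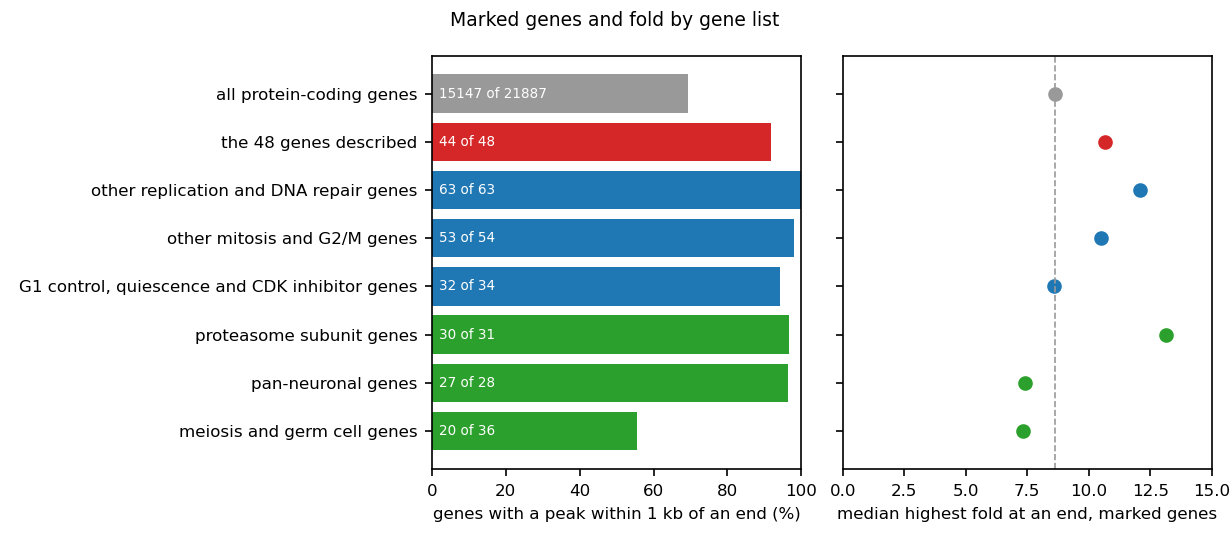
Left, share of genes (%) with a peak within 1 kb of an end, for all protein-coding genes, the 48 genes described here (red), related lists (blue) and comparison lists (green), with the counts in the bars. Right, median highest end fold (linear ratio) over the marked genes of each, where the dashed line is the median of all marked protein-coding genes; medians run from 7.34 (meiosis) to 13.1 (proteasome), with 10.6 for the genes described here.

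Lists of other kinds set the scale, beside 69.2% of all protein-coding genes marked at an end. Proteasome subunits, needed in every cell, were marked in 30 of 31 with a median fold of 13.1, led by Psmd14 (19.2), Psmb2 (18.2) and Psmd2 (18.0). Psma6 had no end peak but 12.2 at its listed start. Pan-neuronal genes, of postmitotic cells, were marked in 27 of 28 with a median of 7.41, led by Elavl4 (16.5), Syn1 (13.3) and Syn2 (12.8), and Mapt had no end peak. Meiosis and germ cell genes were marked in 20 of 36 (55.6%) with a median of 7.34. Mlh3, which also works in mismatch repair, had 23.8, Prdm9 had 18.4 and Hormad1, from a shared peak, had 18.3, while Ccnb3, Ddx4 and Hormad2 had no end peak. The median of the 44 genes thus lay between those of neuronal genes and of proteasome subunits. None of these differences was tested.

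Markers of the tissue and of other cells it could hold were counted in the same way, beside 69.2% of all protein-coding genes marked and a median fold of 8.60. All 12 hypothalamic markers were marked at an end, with a median fold of 5.27. Markers of oligodendrocyte precursors were marked in 9 of 10 (median 3.81), those of neuronal precursors in 7 of 8 (4.05), those of radial glia-like cells and tanycytes in 10 of 10 (5.72) and those of microglia in 7 of 8 (3.78). Endothelial markers were marked in 4 of 7 (57.1%, median 4.05), blood cell markers in 2 of 7 (28.6%) and pituitary markers in 2 of 8 (25.0%), shares below that of all genes. With the whole span and 1 kb around it counted, 6 of 7 endothelial markers held a peak (85.7%), above the 75.2% of all genes. By that rule blood cell markers held one in 4 of 7 (57.1%) and pituitary markers in 4 of 8 (50.0%). The medians of the precursor, tanycyte, microglia and endothelial lists all lay below that of all marked genes. The part of any of these cells in the mark at the 48 genes was not tested.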

How the data were processed

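H3K27ac was mapped by CUT&Tag in 3 hypothalamus samples, which were grouped by title, and 1 peak list made from them together was used. Tools listed in the submitters' processing notes, without role or order, are cutadapt 4.5, BWA 0.7.17, UMI-tools 1.1.4, STAR 2.7.10a and MACS2 (no version), and the build is mm10. How the caller was set and how the replicates were combined is not given in the sources used here. Fold enrichment, a linear ratio, and the −log10 q are values the authors deposited per peak. The score deposited by the authors, a whole number of at most 1000, was not used further.

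Coordinates were made 1-based. Spans came from RefSeq GRCm38.p6, whose gene table has no strand, and strand and starts came from its promoter table (39 of the 48 genes). Computation used Python 3.11.15, pandas 2.3.3, numpy 2.4.6 and matplotlib 3.10.9. The assignment of peaks to genes was tested on simulated data. With no value per replicate, no test was run. All 48 genes could be named. Of each other list, the 3 marked genes of highest fold and up to 3 without an end peak, in alphabetical order, could be named. The genes and all lists were chosen with earlier results of these data known. Gm genes and close neighbours are partners by annotation only.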

Additional observations from a re-analysis of the deposited data

How the results depend on the processing

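The count of 44 marked genes was 38 to 46 of 48 under the 7 other rules for an end and the span rule. It stayed within 1.5 times its value in each. The shares of all protein-coding genes under those rules ran from 58.6% to 75.2%. The count was 34 and 37 of the 39 genes of known strand at the 5′ end and at a listed start. The shares of all protein-coding genes of known strand were 65.3% and 68.3%. The rule of a listed start was chosen after seeing the data. The median fold of 10.6 became 10.8 with windows of 2500 bp, where the median of all marked genes was 8.59, and 10.8 with peaks above the median −log10 q, beside 9.07. It became 10.1 with peaks given to the nearest gene, beside 8.11. Peaks shared with another gene's end numbered 11 of 44 with windows of 500 bp and 18 of 44 with 2500 bp. The shares over all marked genes are not given for these windows, so these counts stand without a background. No paired analysis was possible because the list holds no value per replicate, and for the same reason no replicate could be left out. Depth is unknown, so a gene without a peak, such as Top2a, had none in this list, which does not show that the mark is absent.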
